A study of Ailuropoda melanoleuca with 25 samples.

Results

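The region described here is an uninterrupted stretch in the middle of scaffold HIC_ASM_13 of the giant panda gene set, named the block below. Its members are all gene models of that scaffold numbered 647 to 1500 by the annotation, 594 of the 22924 models in the files. The scaffold carries 1051 further models, with numbers from 3 to 2385, and these served as the comparison throughout. The interval was chosen by expression levels along the scaffold in these same libraries, and which libraries or contrast set its ends is not recorded. Every level of the block as a whole is therefore given as a description with no test, and the same holds for single members wherever LB GPiPSC libraries are set against XR GPiPSC or BACL LB GPiPSC libraries.

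The study followed the reprogramming of giant panda (Ailuropoda melanoleuca) primary fibroblasts to induced pluripotent stem cells, abbreviated GPiPSCs, by RNA sequencing of 25 libraries in 12 groups. Fibroblasts (PF) and established GPiPSCs each came under the labels LB and XR, with 2 libraries of LB PF, 2 of XR PF, 3 of LB GPiPSCs and 2 of XR GPiPSCs. Intermediate cultures were sampled at stage I day 8, stage I day 24 and stage II day 8, and a further pair of groups at day 16 was an unnamed control and cultures with A83-01, a small-molecule inhibitor of TGF-beta type I receptors. A last set of 3 groups carried the word BACL: BACL LB GPiPSCs, BACL control and BACL-CHIR99021, the latter named after an inhibitor of glycogen synthase kinase 3. Each of these groups of intermediate, day 16 and BACL cultures had 2 libraries. The labels do not explain LB, XR or BACL, give LB or XR for the intermediate, day 16, BACL control and BACL-CHIR99021 libraries, or say how many animals, clones or cultures stand behind the replicates, and they name primary fibroblast cells as the source of all 25. The reprogramming factors and the medium of each group are likewise not stated in the sources used here. Spread between replicates may thus be technical, and the p-values below cover no more than that spread.

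As background, neighbouring genes on a chromosome share the copy number of the DNA they lie on and often the state of their chromatin. A profile of RNA levels along a scaffold can therefore show stretches in which many unrelated genes sit a little higher or lower together. Reprogramming itself silences fibroblast genes and switches on genes of pluripotent cells one by one or in local clusters, with changes that are usually far larger. DNA was not assayed in the files used here.

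Total estimated counts ranged from 8627983 to 14890260 per library. Replicates of a group correlated at 0.944 (LB PF) to 0.995 (BACL LB GPiPSC) over the log2 CPM (counts scaled to a common library size) of the 17225 models tested. Libraries of the 3 BACL pairs differed little more than counting noise would give, with a chi-square per model of 1.2, 1.61 and 1.54, against 118 between the LB PF libraries. One library stood apart from its group. The correlation of LB GPiPSC replicate 3 was 0.981 with both libraries of XR GPiPSC but 0.962 with its own replicates 1 and 2, so results that use it are given with and without it. No file pairs a model identifier with a gene name, and 0 identifiers were found in the RefSeq gene table used, so members are called by their number and neither gene functions nor cell type markers could be looked up. What each member encodes is not given here for the same reason.

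Members were detected a little more often than other models of the scaffold. Of the block's 594 members, 483 (81.3%) passed the filter on low counts, 111 did not, and 22 of these had no count in any library. The corresponding share was 76.1% among the other models of the scaffold and 75.1% among all models. Median coding length was 1069.5 bases in the block and 1038 in the rest of the scaffold. Mean abundance over the groups exceeded 1 TPM, a count share corrected for transcript length, for 422 members (71.0%) and for 64.5% of the other models of the scaffold. In 9 members the coding length was equal to that of a model within 5 numbers, and reads of such possible copies cannot be told apart with certainty.

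In the GPiPSC and BACL cultures the block was set apart from its scaffold in 3 of 11 libraries. For this view each model with a mean of at least 10 CPM was expressed as the log2 ratio of its level in a library to the mean of the 5 GPiPSC and BACL groups, which left 260 members and 430 other models of the scaffold. In XR GPiPSC replicates 1 and 2 the median of the members lay 0.33 and 0.35 log2 units above the median of the other models, or 1.25-fold and 1.27-fold. In LB GPiPSC replicate 3 the difference was 0.36, or 1.28-fold. The other 8 libraries lay below 0, at -0.14 and -0.15 in LB GPiPSC replicates 1 and 2, -0.15 and -0.11 in BACL LB GPiPSC, -0.10 and -0.11 in BACL control, and -0.12 and -0.12 in BACL-CHIR99021. The reference mean contains the 3 high libraries, so a value below 0 is not by itself a lowered level. No value of the 3 high libraries overlapped with those of the 8 others, and the LB GPiPSC group was split by its own replicates, with a mean of 0.02 ± 0.29 (SD, n = 3) against 0.34 ± 0.02 (SD, n = 2) in XR GPiPSC.

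**Figure D1:**
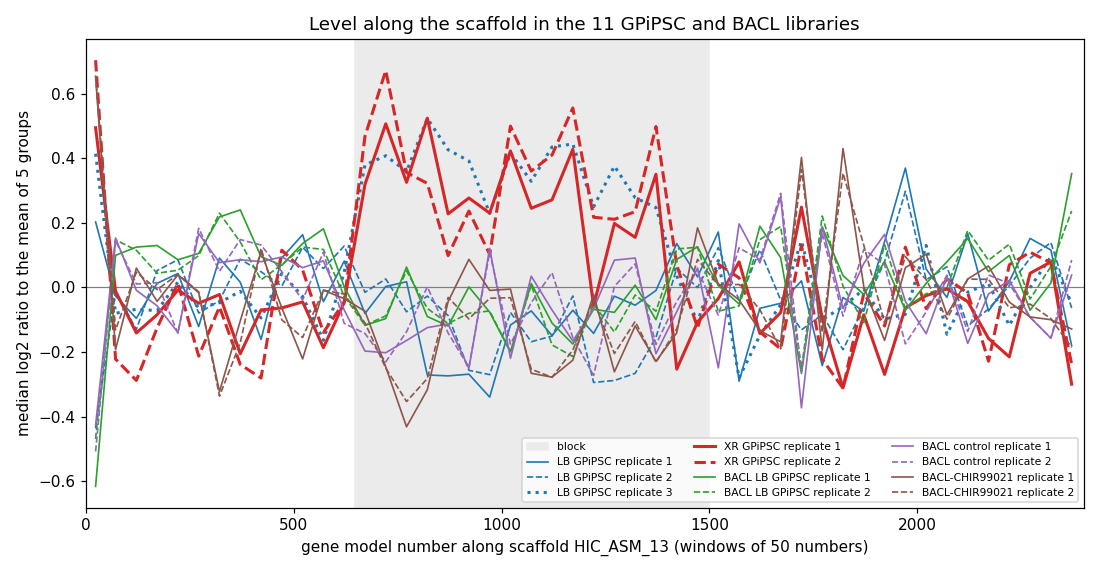
Median log2 ratio of a library to the mean of the 5 GPiPSC and BACL groups (vertical axis) in windows of 50 model numbers along the scaffold (horizontal axis), one line per library, with the block shaded. XR GPiPSC replicates 1 and 2 (red) and LB GPiPSC replicate 3 (blue dots) lie above the other libraries over most of the shaded range, and return to them in its last windows. Outside the shaded range they are near 0 in most windows, but in the first window, numbers 1 to 46, they are at 0.41 (LB GPiPSC replicate 3), 0.49 and 0.70 (XR GPiPSC).

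The elevation was carried by most of the members rather than by a few. In LB GPiPSC replicate 3, 214 of the 260 members (82.3%) were above 0, and in XR GPiPSC replicates 1 and 2 the count was 193 (74.2%) and 209 (80.4%). In the 8 other libraries between 81 (31.2%) and 112 (43.1%) members were above 0, relative to a mean that contains the 3 high libraries. Among the other models of the scaffold the share above 0 was 43.0% in LB GPiPSC replicate 3, 42.3% and 44.2% in XR GPiPSC, and up to 64.2% in BACL LB GPiPSC replicate 1. The middle 50% of the members ran from 0.10 to 0.56 in LB GPiPSC replicate 3 and from 0.06 to 0.61 in XR GPiPSC replicate 2, so single members varied around a common shift by about as much as the shift itself.

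Raised windows followed one another along nearly the whole block. Cut into windows of 25 model numbers, the block had 31 windows with at least 4 such members, and their median was above 0 in 27 windows for LB GPiPSC replicate 3 and in 25 and 29 windows for XR GPiPSC replicates 1 and 2. The count was 7 to 11 in the other 8 libraries. Medians above 0.2 were found in 24, 20 and 20 windows of the 3 high libraries and in at most 2 windows of any other library. Outside the block, 52 windows of this size had 4, 6 and 3 medians above 0.2 in the 3 high libraries. Among these was the window of numbers 1697 to 1721, whose 6 models had medians of 0.55 in LB GPiPSC replicate 3 and 0.61 and 0.69 in XR GPiPSC, as high as in the block. The same window was at 0.58 and 0.59 in BACL-CHIR99021 and at -0.89 to -0.70 in BACL LB GPiPSC and BACL control, so its pattern over the libraries was not that of the block.

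The elevation began a little after the first number of the interval. The 11 expressed models of the 50 numbers before the block had medians of 0.05 in LB GPiPSC replicate 3 and -0.05 and -0.05 in XR GPiPSC replicates 1 and 2. The first 5 expressed members, numbered 647 to 671, were still near that level, with medians of -0.01, -0.04 and 0.13. The 10 expressed members of the next window, 672 to 696, had medians of 0.50, 0.43 and 0.50.

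The elevation ended before the last number. The 234 expressed members numbered 672 to 1396 had medians of 0.35 in LB GPiPSC replicate 3 and 0.28 and 0.32 in XR GPiPSC, with 86.3%, 78.6% and 82.5% of them above 0. The 21 expressed members numbered 1397 to 1500 had medians of 0.02, -0.11 and 0.02 in the same libraries, which is the level of the 8 models in the 50 numbers after the block (0.02, -0.15 and -0.01). The last 104 numbers of the interval thus did not share the elevation. These inner limits were chosen after the profile was seen.

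Single models next to the limits of the rule varied widely, so that neither limit can be read from them. Just outside the first number, models 636, 638 and 641 had log2 ratios of 0.27, -0.23 and -0.09 in XR GPiPSC replicate 1. Just inside it, members 647, 648 and 652 had -0.04, 1.15 and 0.01. At the far end, members 1495, 1498 and 1500 had 0.11, 1.28 and 1.39, and the models after them, 1501.1, 1502 and 1505, had -0.16, -0.33 and -0.57. Members 648, 1498 and 1500 varied between the groups for more than the block did: member 648 ranged from 1.47 in LB GPiPSC replicate 1 to -1.86 in BACL control replicate 1, and member 1500 from 1.53 in XR GPiPSC replicate 2 to -2.75 in BACL LB GPiPSC replicate 2.

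Well expressed members showed the elevation at every level. Over 207 members of 10 to 100 CPM the difference from other models of the scaffold at the same level was 0.36 in LB GPiPSC replicate 3 and 0.31 and 0.34 in XR GPiPSC, and over 53 members of 100 CPM or more it was 0.37, 0.36 and 0.41. Over 116 members of 1 to 10 CPM it was 0.00, 0.04 and 0.16, and the 8 other libraries ranged from -0.15 to 0.10 there. At these low levels no separation of the 3 libraries was detectable.

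In terms of reads, the block without member 784, which is dominant in fibroblasts and is described below, gave 4.17% of the counts of LB GPiPSC replicate 3 and 3.94% and 4.12% in XR GPiPSC. It gave 3.14% and 3.05% in LB GPiPSC replicates 1 and 2 and 2.85% to 3.10% in the BACL libraries. The 14 fibroblast and intermediate libraries lay between 2.62% and 3.40%, below the 3 high libraries. Share of the summed TPM, with member 784 included, was 3.84%, 3.65% and 3.82% in the 3 high libraries and 2.71% to 3.14% in the other 8 GPiPSC and BACL libraries. In the 14 fibroblast and intermediate libraries it was 2.80% (LB PF replicate 2) to 3.61% (XR PF replicate 2). By this measure the 3 high libraries thus stood little above the highest of these 14.

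**Figure D2:**
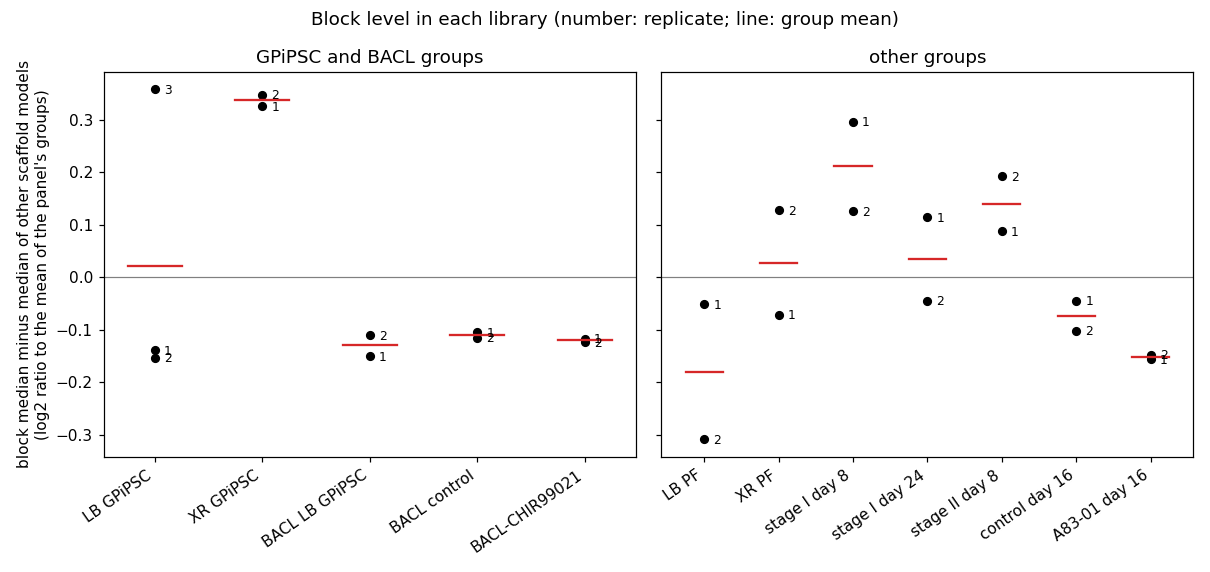
Block median minus the median of the other models of the scaffold (vertical axis, log2 ratio to the mean of the panel's groups) for every library, with replicate numbers beside the points and red lines at the group means. On the left, XR GPiPSC replicates 1 and 2 and LB GPiPSC replicate 3 sit at 0.33 to 0.36 and the other 8 libraries at -0.15 to -0.10. On the right, values spread from -0.31 to 0.30 with an SD between replicates of up to 0.18. The panels have different references, so heights cannot be compared between them.

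Set against each other, the groups gave the same order. With all 3 LB GPiPSC libraries, XR GPiPSC exceeded LB GPiPSC by 0.35 log2 units more over the members than over the other models of the scaffold, or 1.28-fold. Without LB GPiPSC replicate 3 this became 0.52, or 1.43-fold. Libraries of the groups did not overlap, with XR GPiPSC higher, for 88 of 260 members (33.8%), where the share over all 9009 models of this level was 21.3%. Without that replicate it was 179 members (68.8%), where the share over all such models was 32%. These counts come from the libraries in which the block stands out and carry no test.

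Relative to XR GPiPSC, the block was lower in each of the 3 BACL groups by nearly one amount. The difference from the rest of the scaffold was -0.48 in BACL LB GPiPSC, -0.45 in BACL control and -0.47 in BACL-CHIR99021. Without overlap, 173, 179 and 178 of the 260 members were lower than in XR GPiPSC, or 66.5%, 68.8% and 68.5%, where the shares over all models of this level were 38.9%, 38.2% and 42%. Among the 3 BACL groups themselves the differences were between -0.01 and 0.02. Against LB GPiPSC replicates 1 and 2 alone they were 0.04, 0.02 and 0.04, and with replicate 3 included -0.14, -0.14 and -0.12.

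A shift of this kind was not limited to the block. On scaffold HIC_ASM_1 the median over all 569 expressed models was 0.17 in LB GPiPSC replicate 3 and 0.18 and 0.13 in XR GPiPSC, against 0.00 to -0.17 in the other libraries. On HIC_ASM_13 as a whole, with 690 expressed models, it was 0.07, 0.06 and 0.08, but these include the 260 members of the block. The 430 other models of that scaffold had medians of -0.03, -0.07 and -0.06 in the same libraries. Agreement of LB GPiPSC replicate 3 with the XR GPiPSC libraries therefore extended over more of the genome than the block, and what is behind it was not tested.

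In fibroblasts and intermediate cultures the level of the block varied between groups and replicates, and single libraries showed long stretches of one sign. Here the reference is the mean of these 7 groups, so the values cannot be set beside those of the GPiPSC and BACL libraries. Over 304 members and 469 other models with at least 10 CPM in these 7 groups, the difference was -0.05 and -0.31 in LB PF, -0.07 and 0.13 in XR PF, 0.30 and 0.13 at stage I day 8, 0.11 and -0.04 at stage I day 24, 0.09 and 0.19 at stage II day 8, -0.04 and -0.10 in the day 16 control, and -0.16 and -0.15 with A83-01. The SD between replicates reached 0.18 in LB PF and 0.14 in XR PF, so most neighbouring groups in this order did not differ beyond their spread. Windows within the block went both ways, for example from -0.63 to 0.84 in stage I day 8 replicate 1. On a common reference, the mean of all 12 groups over all members tested, the difference was 0.14 and 0.27 in XR GPiPSC. LB GPiPSC replicate 3 was at 0.18 on that scale, stage I day 8 at 0.25 and 0.17, and stage I day 24 at 0.31 and 0.15. XR PF was at 0.02 and 0.25, and stage II day 8 at 0.06 and 0.15. On that scale XR GPiPSC was thus not higher than both stage I groups.

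How far the elevation shows in the fitted fold changes depends on the comparison. Over the 483 members tested, the median log2 fold change of XR GPiPSC against LB GPiPSC was 0.21, where it was -0.01 in the other models of the scaffold, and 0.36 against -0.02 without LB GPiPSC replicate 3. For BACL LB GPiPSC against LB GPiPSC the medians were -0.22 and -0.08, and -0.01 and -0.05 without that replicate. XR PF against LB PF also gave a higher median in the block, 0.21 against 0.05, a difference of 0.16. Leaving out 1 fibroblast library at a time moved it to 0.32 and 0.090 (without LB PF replicates 1 and 2) and to 0.29 and 0.052 (without XR PF replicates 1 and 2). The block was 0.18 above the rest at stage I day 8 against the mean of the PF groups, and the difference was -0.21 in the day 16 control against stage I day 8. For GPiPSC against PF the difference was -0.03 in LB and 0.00 in XR, and leaving out 1 fibroblast library moved the former to 0.10 or -0.13 (without LB PF replicate 1 or 2) and the latter to -0.077 or 0.17 (without XR PF replicate 1 or 2). The mean of LB and XR GPiPSC against stage II day 8 gave -0.10, and -0.22 without LB GPiPSC replicate 3. In the remaining comparisons the difference lay between -0.05 and 0.01.

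Single members changed far more than the block. Calls below come from edgeR's quasi-likelihood test at an adjusted p under 0.05, fitted over all 17225 models. The share of all models called is given beside the counts of each comparison fitted with all libraries. It is not given for most fits that leave out a library. A change of count in those fits may be shared by all models and is not read as a trait of the block.

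**Figure D3:**
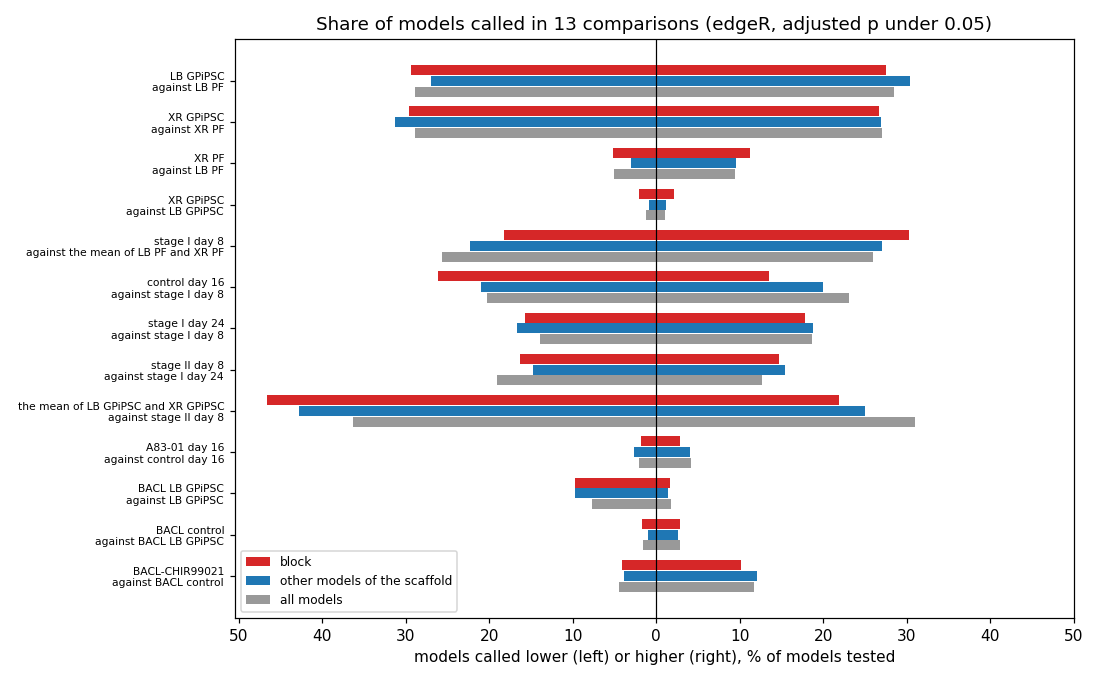
Share of tested models called lower (left of 0) or higher (right of 0) by edgeR in each of the 13 comparisons, in percent of the models tested, for the 483 members of the block (red), the 800 other models of the scaffold (blue) and all 17225 models (grey). The red bars follow the grey ones within a few percent in most comparisons; they differ most in the day 16 control against stage I day 8, with 13.5% of members higher where 23.0% of all models were, and in GPiPSC against stage II day 8, with 46.6% lower where 36.3% were.

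Between fibroblasts and GPiPSCs the block changed about as often as the genome. In LB, 133 members were higher in GPiPSC and 142 lower, or 27.5% and 29.4% of the 483 tested, where the background was 28.5% and 28.9%. These are 275 in all (background 57.4%), and without LB GPiPSC replicate 3 there were 112 higher and 147 lower, with a background of 27.1% and 27.3%. In XR, 129 were higher and 143 lower, or 26.7% and 29.6%, with a background of 27% and 28.9%, and 272 in all (background 55.9%). Those shares are near the background.

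Member 734 rose in both and belonged to a stretch of neighbours that rose with it. Its level was 4.51 and 3.27 CPM in LB PF and 5.74 and 4.74 CPM in XR PF. It reached 364, 429.9 and 484 CPM in LB GPiPSC and 666 and 734 CPM in XR GPiPSC, so that no GPiPSC library overlapped with a fibroblast library. The log2 fold change was 6.76 (SE 0.31, edgeR adjusted p = 3.81e-12) in LB and 7.06 (SE 0.32, edgeR adjusted p = 1.31e-11) in XR. Around it, 9 tested members in a row from 723 to 734 were called higher over 2-fold in LB GPiPSC and 10 in a row from 722 to 734 in XR GPiPSC. This was the longest such run of the block in either comparison, and it was singled out after the values were seen. The other scaffold models had a longest run of 5 in LB and 11 in XR.

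Members of the run were higher at stage I day 24 than at stage I day 8, and lower again at stage II day 8. At stage I day 8 member 734 was at 3.13 and 4.46 CPM, and at stage I day 24 it had risen to 37.1 and 47.5 CPM, a log2 fold change of 3.47 (SE 0.29, edgeR adjusted p = 5.77e-08). At stage II day 8 it was back at 5.94 and 3.03 CPM, a log2 fold change of -3.23 (SE 0.28, edgeR adjusted p = 2.75e-07). The stretches called over 2-fold in the same way held 6 members from 728 to 734 for the rise and 7 members from 725 to 734 for the fall. Member 733 followed this course, with 0.75 and 0.52 CPM at day 8, 43.6 and 27.5 CPM at day 24, and 2.87 and 2.28 CPM at stage II day 8. Its rise by day 24 was 5.80 (SE 0.69, edgeR adjusted p = 3.52e-06). From stage II day 8 to the mean of LB and XR GPiPSC, member 734 rose by 6.92 (SE 0.31, edgeR adjusted p = 3.12e-12).

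BACL-CHIR99021 held members 732, 733 and 734 of the run at lower levels than BACL control. Member 734 was at 303 and 310.1 CPM in BACL LB GPiPSC, 182 and 178 CPM in BACL control and 54.7 and 53.3 CPM in BACL-CHIR99021. The decrease from BACL control to BACL-CHIR99021 was -1.74 (SE 0.25, edgeR adjusted p = 6.44e-05). Member 732 was at 129.8 and 126 CPM in BACL LB GPiPSC, above the 101, 42.9 and 117 CPM of LB GPiPSC. It fell likewise from BACL control to BACL-CHIR99021, from 84.3 and 89.8 CPM to 17.9 and 16.5 CPM, by -2.34 (SE 0.42, edgeR adjusted p = 0.000643), and member 733 from 76.6 and 75.1 CPM to 15.7 and 15.4 CPM, by -2.29 (SE 0.50, edgeR adjusted p = 0.0034).

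Member 749 took another path to a similar end. It stood at 2.21 and 2.06 CPM in LB PF and 5.66 and 6.96 CPM in XR PF, and it rose to 279, 267 and 445 CPM in LB GPiPSC and 350.5 and 333 CPM in XR GPiPSC. The log2 fold change in LB was 7.26 (SE 0.45, edgeR adjusted p = 1.44e-10). It had reached 120 and 82.9 CPM by stage I day 24, 5.28 above day 8 (SE 0.42, edgeR adjusted p = 4.48e-08), and 345 and 409 CPM at stage II day 8, so it stayed high where member 734 was low. In the day 16 groups it was at 0.83 to 3.87 CPM.

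**Figure D4:**
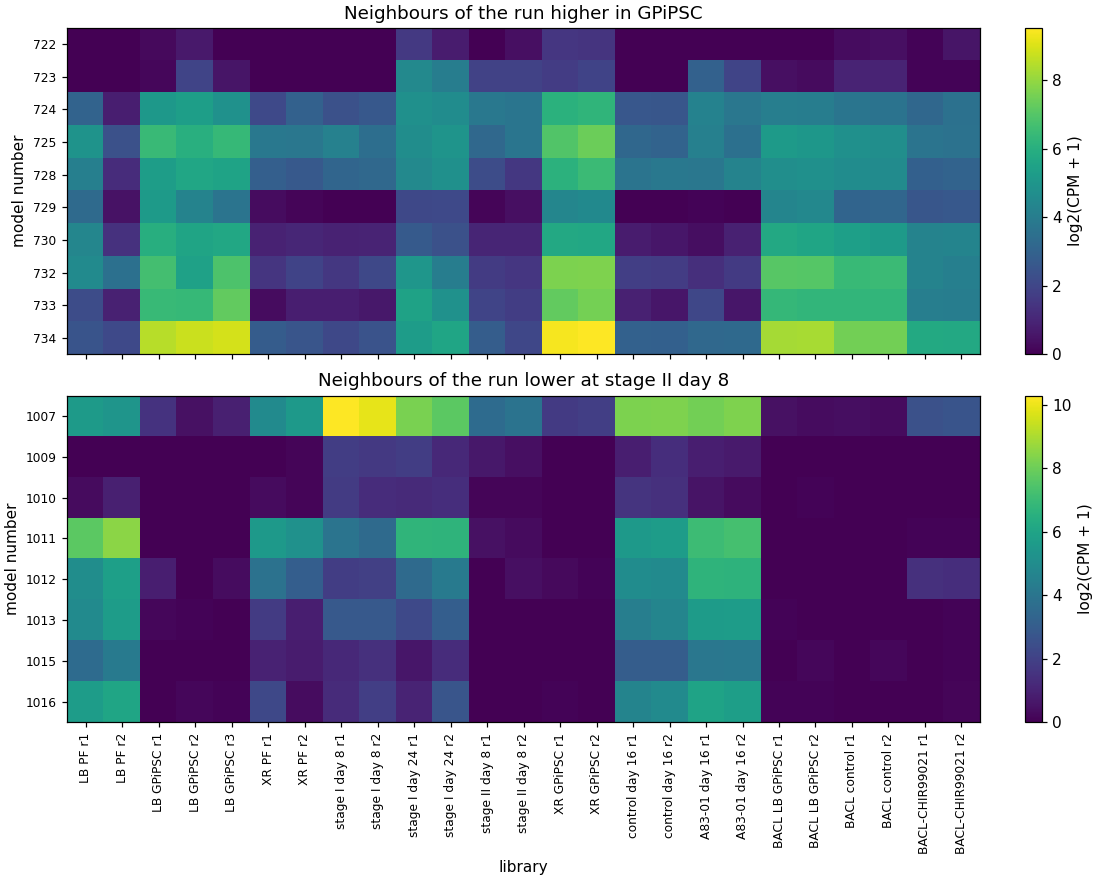
Level of neighbouring members in every library, as log2(CPM + 1) in colour, for the run from 722 to 734 (upper panel) and the run from 1007 to 1016 (lower panel); rows are tested members by number and columns are libraries by group and replicate (r). The upper run is brightest in the LB and XR GPiPSC libraries, is visible at stage I day 24 and dims at stage II day 8; the lower run is bright in LB PF, the day 16 control and A83-01 libraries and dark in all GPiPSC and BACL libraries except for faint signal of members 1007 and 1012.

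The most highly counted member of the block was abundant in fibroblasts and intermediate cultures and nearly absent from LB and XR GPiPSC. Member 784, with a coding length of 4329 bases, stood at 20741 and 5849 CPM in LB PF, 38528 and 52768 CPM in XR PF, and 64019 and 56444 CPM at stage I day 8, where it made up 54.2% and 53.9% of all counts of the block. It was at 16026 and 15896 CPM at stage I day 24 and at 15626 and 20076 CPM at stage II day 8. In LB GPiPSC it was at 0.97, 0.19 and 0.32 CPM, and in XR GPiPSC at 0.06 and 0.12 CPM, where 3 counts, the limit taken for detection, are 0.19 CPM in LB GPiPSC replicate 1 and in XR GPiPSC replicate 1. BACL LB GPiPSC and BACL control libraries had 0.06 CPM or less. In BACL-CHIR99021 it was at 11.4 and 9.90 CPM, above every other GPiPSC or BACL library.

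Around member 784 others fell between fibroblasts and GPiPSC. Runs of 4 members from 774 to 778 and of 4 from 781 to 784 were called lower over 2-fold in both LB and XR. Member 776 went from 114 and 113 CPM in LB PF to 0.39, 0.56 and 0.32 CPM in LB GPiPSC, a log2 fold change of -8.03 (SE 0.39, edgeR adjusted p = 1.4e-11). Member 763 went from 53.4 and 92.2 CPM in XR PF to 0.39 and 0.68 CPM in XR GPiPSC, by -7.07 (SE 0.62, edgeR adjusted p = 3.36e-08).

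Member 1215 was lost in GPiPSC and was higher in BACL-CHIR99021 than in BACL control. Fibroblasts had 358 and 930.2 CPM in LB and 509 and 496 CPM in XR, and the day 16 control had 1685 and 1854 CPM. LB GPiPSC had 2.79, 0.93 and 1.99 CPM, a log2 fold change of -8.40 (SE 0.41, edgeR adjusted p = 7.94e-12), and XR GPiPSC had 2.90 and 3.01 CPM, by -7.41 (SE 0.47, edgeR adjusted p = 4.47e-10). In BACL control it was at 4.54 and 3.23 CPM and in BACL-CHIR99021 at 41.6 and 40.6 CPM, a rise of 3.40 (SE 0.40, edgeR adjusted p = 8.6e-06).

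Stage I day 8 against the mean of LB PF and XR PF gave 146 members higher and 88 lower, or 30.2% and 18.2%, where the background was 26% and 25.6%. The total was 234 (background 51.6%), and 111 when stage I day 8 replicate 1 was left out. Members 1440 and 1441, neighbours by number, led the rise. Member 1440 went from 21.7 and 140.0 CPM in LB PF and 18.9 and 33.3 CPM in XR PF to 2322 and 1995 CPM, by 5.56 (SE 0.50, edgeR adjusted p = 3.94e-07). It was still at 1761 and 1785 CPM in the day 16 control, fell to 66.0 and 42.9 CPM at stage I day 24, by -5.31 against day 8 (SE 0.67, edgeR adjusted p = 1.64e-05), and was at 0.65 CPM or less at stage II day 8 and in every GPiPSC and BACL library. Member 1441 rose to 1417 and 1036 CPM at day 8, by 6.37 (SE 0.64, edgeR adjusted p = 5.3e-06).

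Downward, stage I day 8 was marked by members 1011 and 1012. Member 1011 was at 207 and 363 CPM in LB PF, 46.0 and 36.5 CPM in XR PF and 14.8 and 10.8 CPM at day 8, by -3.09 (SE 0.29, edgeR adjusted p = 1.46e-06). Member 1012 fell by -2.97 (SE 0.58, edgeR adjusted p = 0.000554). They belong to a run, from 1007 to 1017, that recurred in several comparisons and was singled out after its values were seen.

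That run differed between the fibroblasts. XR PF against LB PF gave 54 members higher and 25 lower, or 11.2% and 5.18%, with a background of 9.47% and 5.04%. In all 79 members were called (background 14.5%). This became 141 and 36 when LB PF replicates 1 and 2 were left out in turn, and 132 and 22 for XR PF replicates 1 and 2. Of the members that were lower, 6 in a row from 1011 to 1017 were lower over 2-fold. Member 1013 was at 29.6 and 51 CPM in LB PF and 2.51 and 0.84 CPM in XR PF, by -4.56 (SE 0.54, edgeR adjusted p = 5.59e-05). Member 1359, elsewhere in the block, was at 97.1 and 19.0 CPM in LB PF and 1.45 and 2.41 CPM in XR PF, by -4.91 (SE 0.67, edgeR adjusted p = 0.000247).

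Among the higher members, 1195 and 1427 had the largest changes that met the naming rule. Member 1195 was at 18.9 and 1.58 CPM in LB PF and 36.0 and 72.4 CPM in XR PF, by 2.37 (SE 0.63, edgeR adjusted p = 0.0176). Member 1427 was at 3.61 and 0.97 CPM in LB PF and 5.42 and 14.7 CPM in XR PF, by 2.07 (SE 0.58, edgeR adjusted p = 0.022). Both missed the threshold without LB PF replicate 2 (edgeR adjusted p = 0.0767 and 0.187) and without XR PF replicate 2 (0.150 and 0.321).

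In the day 16 control against stage I day 8, members were lower more often than higher. There were 65 higher and 126 lower, or 13.5% and 26.1%, where the background was 23% and 20.2%. The total was 191 (background 43.3%). Leaving out stage I day 8 replicate 1 gave 60, and leaving out a control library gave 114 (replicate 1) or 91 (replicate 2). The same 6 numbers from 1011 to 1017 were in a run called higher over 2-fold. Member 1016 went from 1.38 and 2.80 CPM to 24.1 and 29.8 CPM, by 3.66 (SE 0.77, edgeR adjusted p = 0.00211), and member 1012 from 2.63 and 2.90 CPM to 30.8 and 29.8 CPM, by 3.45 (SE 0.62, edgeR adjusted p = 0.000837). Downward, member 760 went from 507 and 514 CPM to 11.4 and 7.74 CPM, by -5.73 (SE 0.69, edgeR adjusted p = 2.56e-05), after 0.89 CPM or less in all 4 fibroblast libraries. Member 833, the next by fold, was at 12.1 and 11.4 CPM at day 8 and 0.83 and 0.66 CPM in the control, by -3.96 (SE 0.76, edgeR adjusted p = 0.00106).

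Stage I day 24 against day 8 gave 86 members higher and 76 lower, or 17.8% and 15.7%, with a background of 18.6% and 13.9%, and 162 in all (background 32.5%). Beside members 733, 734 and 749, a run of 5 members from 1195 to 1201 was called higher over 2-fold. Member 1195 stood at 4.01 and 6.12 CPM at day 8 and at 142 and 69.9 CPM at day 24. It was at 174 and 195 CPM at stage II day 8 and at 36.7 to 75.9 CPM in the LB and XR GPiPSC libraries.

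Stage II day 8 against stage I day 24 gave 71 members higher and 79 lower, or 14.7% and 16.4%, with a background of 12.7% and 19%. The total was 150 (background 31.7%). It was 94 when stage I day 24 replicate 2 was left out, and 98 or 64 when a stage II day 8 library was (replicate 1 or 2). Member 1359 went from 181 and 106 CPM to 0.69 and 0.65 CPM, by -7.72 (SE 0.79, edgeR adjusted p = 9.31e-06). Member 1332 went from 258 and 153 CPM to 1.78 and 1.19 CPM, by -7.09 (SE 0.45, edgeR adjusted p = 7.3e-09). A run of 8 members from 1007 to 1016 was lower over 2-fold, and the longest such run among the other models of the scaffold was 4. Upward, member 840 rose from 2.21 and 1.00 CPM to 22.9 and 24.1 CPM, by 3.90 (SE 0.68, edgeR adjusted p = 0.000423), and member 687 from 13.6 and 16.2 CPM to 84.4 and 85.2 CPM, by 2.51 (SE 0.47, edgeR adjusted p = 0.000721).

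The mean of LB and XR GPiPSC against stage II day 8 gave the largest number of lower members. There were 106 higher and 225 lower, or 21.9% and 46.6%, with a background of 31% and 36.3%, and 42.8% of the other models of the scaffold were lower as well. The total was 331 (background 67.3%). Without LB GPiPSC replicate 3 the members numbered 101 higher and 227 lower, with a background of 31.1% and 35.3%. Of the 182 members lower by over 2-fold, 104 lay in runs of 3 or more, and the longest run had 12 members, from 1329 to 1345. In the other models of the scaffold 113 of 275 did, with a longest run of 7. Member 1162 went from 123 and 161 CPM to 0.58, 1.12 and 0.90 CPM in LB GPiPSC and 2.25 and 3.56 CPM in XR GPiPSC, by -6.47 (SE 0.33, edgeR adjusted p = 2.01e-11). Member 717 went from 92.5 and 111 CPM to at most 5.16 CPM, by -5.37 (SE 0.36, edgeR adjusted p = 9.13e-10).

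XR GPiPSC against LB GPiPSC gave 10 members higher and 10 lower of 483, where the background was 1.1% and 1.2%. Without LB GPiPSC replicate 3 it was 41 higher and 17 lower, with a background of 3.81% and 3.36%. The total was 20 (background 2.3%), and 6, 8, 1 and 0 when LB GPiPSC replicates 1 and 2 and XR GPiPSC replicates 1 and 2 were left out in turn. Beside the 0, edgeR gave 52 members an unadjusted p under 0.05. Nothing is read from these counts, since the block may have been drawn from this contrast. By the edgeR interaction term, the XR change from PF to GPiPSC was above the LB change for 20 members and below it for 18, with a background of 3.09% and 5.56%. That term contains the same contrast, so nothing is read from these 2 counts either. Member 917 was at 1.49, 6.66 and 7.13 CPM in LB GPiPSC and 23.7 and 28.4 CPM in XR GPiPSC. Member 1337 was at 14.8, 8.90 and 13.4 CPM in LB GPiPSC and 31.3 and 38.7 CPM in XR GPiPSC. Member 1296, the only eligible one in the other direction, was at 52.8, 11.6 and 16 CPM in LB GPiPSC and 3.67 and 3.50 CPM in XR GPiPSC. These members were chosen as called and without overlap between the groups, so the separation is fixed by the choice.

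A83-01 at day 16 gave few calls in the block and over all models alike. It gave 14 higher and 9 lower, or 2.90% and 1.86%, with a background of 4.19% and 2.04%, and 23 in all (background 6.22%). Fewer members were called without any 1 of the 4 libraries, and the share over all models is not given for those fits. Member 969 fell from 60.7 and 53.4 CPM in the control to 6.42 and 6.59 CPM, by -3.13 (SE 0.36, edgeR adjusted p = 2.5e-05). Member 654 rose from 2.78 and 2.64 CPM to 15.4 and 14.8 CPM, by 2.47 (SE 0.35, edgeR adjusted p = 0.000356), and member 1198 from 3.43 and 2.17 CPM to 19.5 and 11.2 CPM, by 2.45 (SE 0.42, edgeR adjusted p = 0.00121). Member 784 fell from 17059 and 16272 CPM to 4174 and 4753 CPM, by -1.90 (SE 0.45, edgeR adjusted p = 0.0146). That last call was lost without any 1 of the 4 libraries, at adjusted p-values of 0.0777 to 0.148.

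BACL LB GPiPSC against LB GPiPSC gave 8 members higher and 47 lower, with a background of 1.79% and 7.7%, and without LB GPiPSC replicate 3 the counts were 9 and 37, with a background of 1.37% and 6.37%. The total was 55 (background 9.5%), and 15 and 18 without BACL LB GPiPSC replicates 1 and 2. The members near the far limit were among the lower ones. Member 1500 was at 21.3, 38.4 and 68.7 CPM in LB GPiPSC and 5.48 and 5.37 CPM in BACL LB GPiPSC. Member 1498 was at 5.44, 10.4 and 21.1 CPM in LB GPiPSC and 1.87 and 1.61 CPM in BACL LB GPiPSC. Upward, member 1000 was at 13.3, 3.80 and 10.2 CPM in LB GPiPSC and 36.5 and 39.8 CPM in BACL LB GPiPSC, and member 994 at 19.1, 14.6 and 24.8 CPM and 57.7 and 59.5 CPM.

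BACL control against BACL LB GPiPSC gave 14 members higher and 8 lower, or 2.90% and 1.66%, with a background of 2.9% and 1.55%. In BACL control member 1500 was at 43.6 and 43.3 CPM, 3.0 above BACL LB GPiPSC (SE 0.46, edgeR adjusted p = 0.000918). Member 1332 rose from 0.93 and 1.55 CPM to 11.4 and 12.3 CPM, by 3.26 (SE 0.40, edgeR adjusted p = 0.000102). Lower were member 780, from 57.0 and 53.3 CPM to 15.7 and 13 CPM, by -1.94 (SE 0.40, edgeR adjusted p = 0.0083), and member 781, from 123 and 118 CPM to 70.5 and 66.8 CPM, by -0.81 (SE 0.20, edgeR adjusted p = 0.0257). Both lost the call without any 1 of the 4 libraries, and the total was then 6 to 9 in place of 22 (background 4.45%).

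BACL-CHIR99021 against BACL control gave 49 members higher and 20 lower, or 10.1% and 4.14%, with a background of 11.7% and 4.43%. Without any 1 of the 4 libraries the total was 33 to 43 in place of 69 (background 16.1%). Beside member 1215, member 1411 rose from 2.43 and 2.30 CPM to 21.4 and 21.0 CPM, by 3.16 (SE 0.50, edgeR adjusted p = 0.000183). Member 1332 fell from 11.4 and 12.3 CPM to 0.57 and 0.64 CPM, by -4.27 (SE 0.43, edgeR adjusted p = 1.43e-06), and member 1354 from 43.3 and 32.7 CPM to 2.59 and 2.34 CPM, by -3.94 (SE 0.62, edgeR adjusted p = 0.000152).

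By abundance per length, the 5 leading members over the 12 groups were 1056, 675, 1134, 1298 and 784, with mean values of 3340, 2704, 2515, 2231 and 1342 TPM. The first 4 were expressed in every library. Member 1056, a model of only 213 coding bases, ranged from 1496 TPM in the day 16 control to 5543 TPM in stage I day 24 replicate 1, and member 675 from 1676 to 4256 TPM. Member 1134 was lowest at stage I day 8, at 791 and 980 TPM, and highest in LB GPiPSC replicate 3 at 4141 TPM.

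Of the 5 leading members, 1056 and 675 did not set the raised libraries apart. In LB GPiPSC replicate 3 they were at 2757 and 2986 TPM, below the 3980 and 3023 TPM of BACL control replicate 1. Member 1134 was at 3394 TPM or more in the raised libraries and at 3208 TPM or less in the other GPiPSC and BACL libraries. Member 1298 was higher in the raised libraries than in LB GPiPSC replicates 1 and 2, BACL LB GPiPSC and BACL control. It was at 1389 and 1338 TPM in LB GPiPSC replicates 1 and 2, 2574 TPM in replicate 3, and 2838 and 3218 TPM in XR GPiPSC. In BACL LB GPiPSC it was at 906.2 and 905.8 TPM and in BACL control at 1213 and 1236 TPM. Its highest values were in XR PF, at 4349 and 4255 TPM. It departed from the block in BACL-CHIR99021, at 3118 and 3120 TPM, a rise of 1.08 on the log2 scale over BACL control (SE 0.29, edgeR adjusted p = 0.0125) where the median over the members tested was 0.00.

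**Figure D5:**
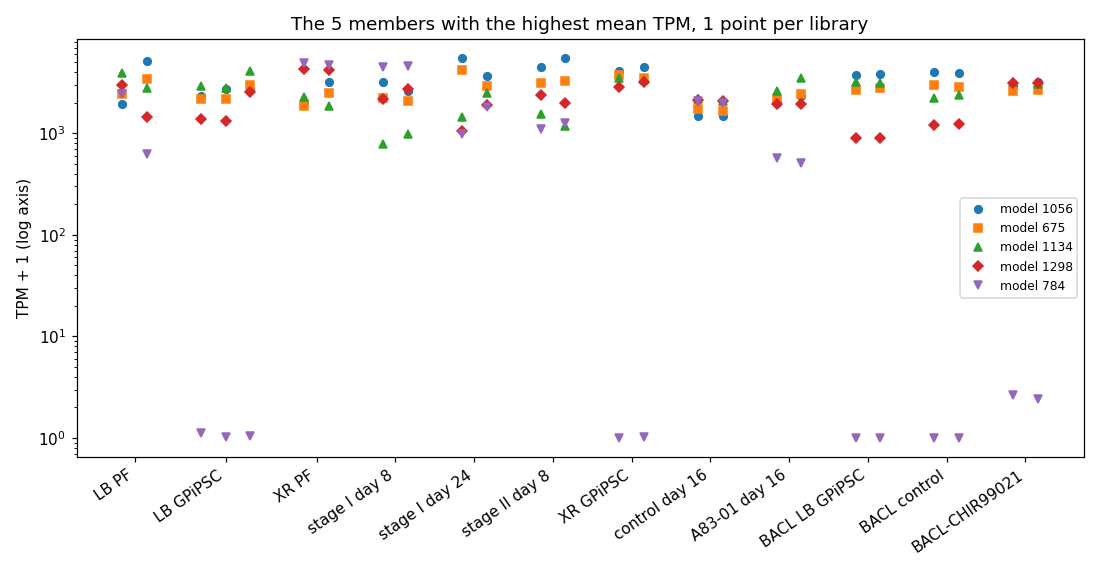
Abundance of the 5 members with the highest mean TPM in every library, as TPM + 1 on a log axis, by group. Members 1056, 675, 1134 and 1298 stay between 791 and 5543 TPM throughout, while member 784 is at 4547 to 4901 TPM in XR PF and at stage I day 8 and at under 2 TPM in all GPiPSC and BACL libraries.

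Members were also counted by the group in which they peaked. Of the 483 members tested, 126 (26.1%) had their highest group mean in XR GPiPSC, and 121 of the 800 other models of the scaffold (15.1%) did. BACL control held the peak of 9 members (1.86%) and of 3.75% of the others, and LB GPiPSC that of 29 members (6.0%) and of 10.1% of the others. These shares rest on the libraries in which the block stands out and are a description.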

How the data were processed

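RNA of 25 libraries was quantified by the authors with kallisto, per the submitters' processing notes, and the deposited files give, per gene model, its length, the estimated counts and the TPM. For the kallisto version, the index and the build, the sources used here give nothing. Libraries were made with the NEBNext Ultra RNA kit, per the labels' protocols, and strand handling is not given. Members are the models whose number lies in the stated interval, and 13 identifiers with a suffix were placed by their first number. Estimated counts were rounded, filtered with filterByExpr (17225 of 22924 models), scaled by TMM and fitted with edgeR 4.0.16 (R 4.3.3) in one quasi-likelihood model of 12 groups with 13 residual degrees of freedom and Benjamini-Hochberg adjustment. Levels are CPM on TMM library sizes, or TPM as deposited where members are compared. Library profiles use log2 CPM with a prior count of 2. The scripts were tested on simulated data. Total counts per library are 8627983 to 14890260, and 3 counts are taken as the detection limit.

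The named members are, per comparison and direction, the 2 largest fold changes among members called, without overlap, at 10 CPM or more on the higher side, with at least 10 counts summed on the lower side and more than 3 counts in every library, plus the 5 highest mean TPM. The interval, lists and tests were chosen with earlier results of these data known. DESeq2 1.42.0, limma 3.58.1 on log2(TPM + 1), other scaling and filters, a replicate block and leaving out libraries were alternatives.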

Additional observations from a re-analysis of the deposited data

Results flagged for a closer look

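Member evm.model.HIC_ASM_13.732 changed by different amounts in the LB and XR pairs. It rose from 22.6 and 10.3 CPM in LB PF to 101, 42.9 and 117 CPM in LB GPiPSC, by 2.39 on the log2 scale, and from 1.78 and 2.79 CPM in XR PF to 199 and 205 CPM in XR GPiPSC, by 6.47. The XR change less the LB change was 4.08 (SE 0.60) by the edgeR interaction term, and GPiPSC and PF libraries did not overlap under either label. This term contains XR GPiPSC against LB GPiPSC, from which the block may have been drawn. The member was listed because the term had an edgeR adjusted p under 0.05. A large difference was therefore fixed by the choice, and no test is given. The fibroblast libraries were higher under LB and the GPiPSC libraries under XR. Over the block, 20 members had a larger change in XR and 18 a smaller one, where 3.09% and 5.56% of all models did. Nothing is read from these counts for the same reason.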

How the results depend on the processing

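Of 490 fold changes of named members recomputed under other settings, 453 stayed on their side of the threshold, 37 lost the call and 0 changed direction, and RLE size factors in place of TMM moved no count or block difference. The number of members called moved most when only the libraries compared entered the fit: 179 (LB GPiPSC against LB PF), 11 (XR PF against LB PF), 0 (XR GPiPSC against LB GPiPSC), 131 (stage I day 8 against the PF mean), 86 (stage I day 24 against day 8), 65 (stage II day 8 against stage I day 24), 55 (A83-01), 234 (BACL control against BACL LB GPiPSC) and 303 (BACL-CHIR99021 against BACL control). XR GPiPSC against LB GPiPSC gave 40 members with DESeq2, and BACL LB GPiPSC against LB GPiPSC gave 36 with limma on log2(TPM + 1). Where edgeR called 0 members for XR GPiPSC against LB GPiPSC, 99 of 483 were at an unadjusted p under 0.05 with only the libraries compared, and 52 without XR GPiPSC replicate 2. For XR GPiPSC against LB GPiPSC, edgeR called 4 of all models with only the libraries compared, and DESeq2 called 889. Shares over all models are not given for most other refits, also those without 1 library. Their counts are therefore not read as a trait of the block. The cause of these moves was not tested.

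Leaving out 1 library at a time gave 22 to 141 members called for XR PF against LB PF, 0 to 58 for XR GPiPSC against LB GPiPSC, 111 to 259 for stage I day 8 against the PF mean, 60 to 170 for the day 16 control against stage I day 8, 64 to 178 for stage II day 8 against stage I day 24, 6 to 14 for A83-01, 15 to 57 for BACL LB GPiPSC against LB GPiPSC, 6 to 9 for BACL control against BACL LB GPiPSC and 33 to 43 for BACL-CHIR99021 against BACL control. The difference between block and scaffold medians ranged from -0.13 to 0.10 for GPiPSC against PF in LB, -0.077 to 0.17 in XR, 0.052 to 0.32 for XR PF against LB PF, 0.15 to 0.38 for XR GPiPSC against LB GPiPSC, -0.22 to -0.063 for GPiPSC against stage II day 8 and -0.26 to 0.036 for BACL LB GPiPSC against LB GPiPSC.

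Means in place of medians gave block differences of -0.32 (LB GPiPSC against LB PF), -0.25 (XR GPiPSC against XR PF), 0.035 (XR PF against LB PF), -0.23 (stage II day 8 against stage I day 24), 0.013 (BACL LB GPiPSC against LB GPiPSC) and -0.15 (BACL control against BACL LB GPiPSC). Set against all other models tested, the block differed by 0.23 at stage II day 8 against stage I day 24 and by -0.47 in GPiPSC against stage II day 8, the latter -0.22 with no filter on low counts. With only the members numbered 672 to 1396, a choice made after the data were seen, it was 0.15 for XR GPiPSC against XR PF and 0.13 for GPiPSC against stage II day 8.

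With the replicate number as a block, XR GPiPSC against LB GPiPSC gave 50 members called and a block difference of 0.38, and BACL LB GPiPSC against LB GPiPSC a difference of 0.037; no other count or difference moved in this fit. Replicate 3 exists only in LB GPiPSC, so this fit sets that library aside. Same-numbered libraries do not deviate together: over 66 pairs of groups the correlation of deviations ran from -0.71 to 0.56 with a median of 0.00, above 0.1 in 9 pairs and below -0.1 in 11, and the libraries share only a number. With 2 or 3 libraries a group, spread is estimated over all groups.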

Other observations

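A pair of members near the end of the interval was detected in some GPiPSC libraries and not in others, and they were chosen after their values were seen. Member 1438 was at 6.29 and 6.23 CPM in LB GPiPSC replicates 1 and 2 and 7.60 and 7.19 CPM in BACL LB GPiPSC, and at 0.19 CPM in LB GPiPSC replicate 3, 0.06 and 0.06 CPM in XR GPiPSC and 0.19 and 0.19 CPM in BACL control, all at or under 3 counts. In BACL-CHIR99021 it was at 1.01 and 0.996 CPM, and in the 14 fibroblast and intermediate libraries at 75.8 to 337 CPM. Member 1432 was at 2.72 and 2.68 CPM in LB GPiPSC replicates 1 and 2, at 0.13 CPM in replicate 3, and at 0.13 and 0.25 CPM in XR GPiPSC. The division of the LB GPiPSC libraries is that of the raised block, in the opposite direction and outside the raised numbers, while BACL control, in which the block was not raised, was low too.

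Member 1345, at the edge of the longest run of falling members, was counted in every library, with 2296, 2284 and 2698 CPM in LB GPiPSC, 2180 and 2518 CPM in XR GPiPSC, 4334 and 5429 CPM at stage II day 8 and 943 and 973 CPM in BACL-CHIR99021.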
